A study of Mus musculus with 27 samples.

Results

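The genes described here are 10 genes of the blood and endothelial lineages, chosen by name as Kdr, Tek, Apln, Etv2, Tal1, Lmo2, Gata1, Gata2, Cd34 and Esam. They are 10 of the 27080 genes listed in 3 deposited RNA-seq tables of J1 cells, a mouse embryonic stem cell (mESC) line. Each gene had 1 row in each table. All cells carried a lentiviral shRNA vector or the control vector. They expressed a non-targeting control (shNT, which the labels call shCon, 3 libraries) or an shRNA against Gas41 (Yeats4), namely shGas41-1 (3 libraries) or shGas41-2 (2 libraries), and the knockdown (KD) samples were harvested 8 days after infection. The other 4 libraries came from control-vector cells kept undifferentiated with LIF (EB day 0, replicates 2 and 3) or grown as embryoid bodies without LIF to day 6 from 1000 cells per well (EB day 6, replicates 2 and 3). The study asked how loss of Gas41, a histone reader of chromatin remodelling complexes, changes gene expression in mESCs, and used the embryoid body (EB) as the differentiated state. No lineage was purified from the EBs, so in these bulk libraries fewer cells of a type and less RNA per cell cannot be told apart.

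Blood and endothelium arise together from mesoderm that expresses the VEGF receptor Kdr (Flk1). The ETS factor Etv2 drives this mesoderm into the haemato-endothelial programme, where Tal1, Lmo2 and GATA factors work as a complex on shared enhancers. Gata2 acts in progenitors and Gata1 later in erythroid and megakaryocytic cells, while Tek, Apln, Cd34 and Esam are receptors, ligands and surface proteins of the vessel wall and of progenitor cells.

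Libraries held between 59224537 and 81524773 counts, and levels are given in CPM, the counts of a gene scaled to the total of its library. A count of 3, used as the floor, equals 0.0368 CPM in the deepest library and 0.0507 CPM in the shallowest, for counting error only. The labels do not say whether replicates were separate cultures, so the tests measure only the spread between these libraries. Of the 3 shGas41-1 libraries, replicate 3 stood apart. Over all genes, its chi-square divided by the degrees of freedom was 134 and 219 against replicates 1 and 2, which gave 33.3 against each other. The targeted gene Yeats4 stood at 63.2, 54.5 and 52.1 CPM in shNT, at 3.5, 4.42 and 4.79 CPM with shGas41-1 and at 8.68 and 7.68 CPM with shGas41-2. Pluripotency markers, summed over 16 genes, reached 8771, 8456 and 8827 CPM in shNT and 7918 and 8304 CPM at EB day 0. They reached 7232, 7256 and 7768 CPM with shGas41-1 and 8127 and 8014 CPM with shGas41-2. At EB day 6 the sums were 2554 and 2334 CPM, and the mesoderm gene T stood at 406 and 496 CPM.

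The shRNA target sites are shown because both KD comparisons rest on them. The shGas41-1 site lies at chr10:116652513-116652533 (mm9, minus strand) in an untranslated part of an exon of Yeats4, and the shGas41-2 site at chr10:116659320-116659340 in its coding sequence. The non-targeting sequence matched no annotated mouse transcript.
shGas41-1: gtagcattccacgacgttaag
shGas41-2: atcgttaagccaatcgtttat
non-targeting control: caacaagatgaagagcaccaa

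Promoters of 8 of the 10 genes were found in RefSeq (build GRCm38.p6), as the 250 bases before and the 50 bases after an annotated start. Those of the 2 genes with the largest rises and the 2 with the largest falls at EB day 6 are shown, 5′ to 3′ on the gene's strand. Capitals mark matches on either strand to GATAA (the core bound by GATA factors), CAGNTG (the E-box bound by Tal1 and its partners) and GGAAG (a core bound by ETS factors such as Etv2). Overlapping matches would merge into 1 run of capitals.
Apln (chrX:48034804-48035103, minus strand): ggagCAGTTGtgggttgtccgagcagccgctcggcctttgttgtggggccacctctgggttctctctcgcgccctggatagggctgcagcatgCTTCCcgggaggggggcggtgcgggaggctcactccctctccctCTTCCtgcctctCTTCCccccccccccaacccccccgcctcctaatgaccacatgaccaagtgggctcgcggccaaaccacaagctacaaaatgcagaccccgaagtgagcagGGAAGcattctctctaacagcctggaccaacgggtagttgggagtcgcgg
Kdr (chr5:75978406-75978705, minus strand): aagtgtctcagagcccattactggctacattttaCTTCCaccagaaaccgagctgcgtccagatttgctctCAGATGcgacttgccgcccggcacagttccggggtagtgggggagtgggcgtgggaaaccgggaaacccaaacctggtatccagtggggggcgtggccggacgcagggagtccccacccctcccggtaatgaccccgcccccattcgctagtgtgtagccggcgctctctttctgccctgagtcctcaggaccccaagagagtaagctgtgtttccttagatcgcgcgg
Tek (chr4:94739039-94739338, plus strand): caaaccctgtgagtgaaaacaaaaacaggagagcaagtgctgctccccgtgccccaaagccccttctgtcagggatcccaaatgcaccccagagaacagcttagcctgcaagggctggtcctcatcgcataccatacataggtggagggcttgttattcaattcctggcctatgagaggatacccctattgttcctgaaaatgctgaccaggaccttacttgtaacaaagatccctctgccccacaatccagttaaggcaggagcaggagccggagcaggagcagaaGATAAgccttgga
Gata1 (chrX:7967861-7968160, minus strand): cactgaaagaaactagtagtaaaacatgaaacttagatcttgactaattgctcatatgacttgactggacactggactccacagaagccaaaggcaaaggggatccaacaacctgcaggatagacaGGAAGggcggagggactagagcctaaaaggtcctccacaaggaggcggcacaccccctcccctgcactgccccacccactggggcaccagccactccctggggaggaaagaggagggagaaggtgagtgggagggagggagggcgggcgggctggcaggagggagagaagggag

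The Apln promoter held 4 ETS cores and 1 E-box, the Kdr promoter 1 of each, the Tek promoter 1 GATA core and the Gata1 promoter 1 ETS core. A GATA core was also present in the promoter of Cd34 and at 1 of 2 Tal1 starts, and ETS cores in the promoters of Etv2 (2 matches), Cd34 (1) and the other Tal1 start (2). The Tal1 start with the GATA core also held 1 E-box, as did 1 of 2 Gata2 starts. All these motifs are common, since 25.3% of 32544 mouse promoters of the same length held the GATA core, 51.5% the E-box and 71.3% the ETS core. The promoters differed more in CG content, where the median mouse promoter held 7 CG dinucleotides (quartiles 3 and 20). Gata2 had 32 and 29 at its 2 starts, Tal1 11 and 22, Kdr 19 and Apln 15. Cd34 had 7, Etv2 5, Gata1 4 and Tek 3. A match is a description of the letters and not a binding site.

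Expression of the 10 genes at EB day 6 split evenly. Apln, Kdr, Lmo2 and Etv2 rose and Tek, Gata1, Esam and Cd34 fell. These calls needed a log2 fold change (log2FC) of at least 1 in size and an FDR, from edgeR's quasi-likelihood test, of at most 0.05. Gata2 and Tal1 did not pass. All 10 genes passed the filter on low counts. Among 18287 genes tested, 16.6% were called higher and 14.7% lower, against 4 and 4 of the 10. The median log2FC of the 10 genes was -0.90 and that of all genes -0.00285.

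**Figure D1:**
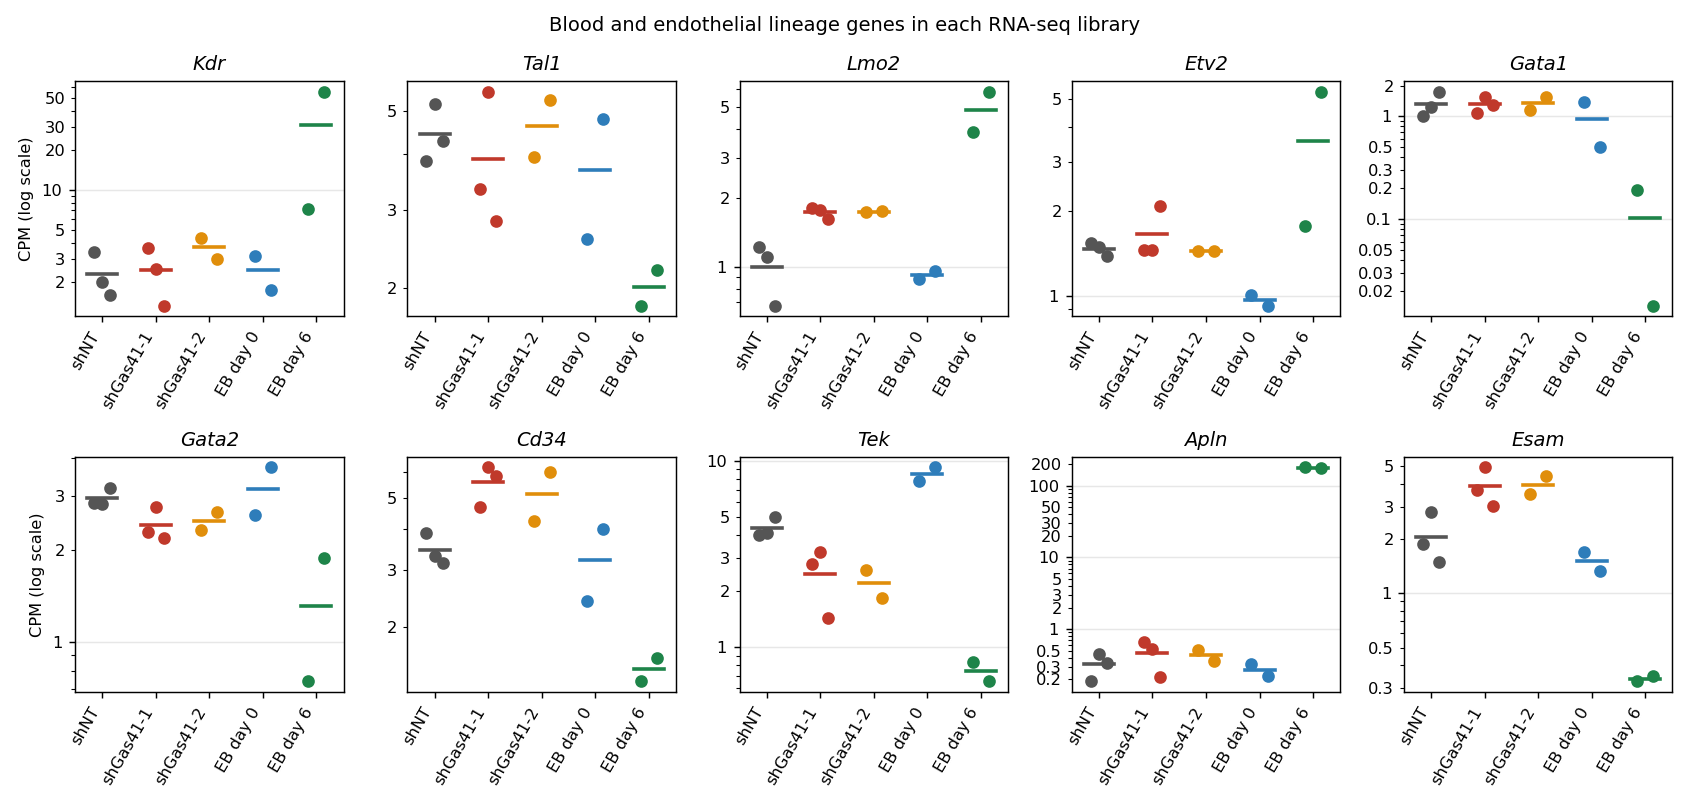
CPM (log scale, with its own range in each panel) of each gene in the 12 RNA-seq libraries, with 1 point per library and a line at the mean of each group of 2 or 3 libraries. Apln stood at 181 and 178 CPM at EB day 6 and below 1 CPM in every other library, while Kdr stood at 7.12 and 55.5 CPM in the EB day 6 libraries.

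Apln encodes the secreted ligand apelin, made by the tip cells of growing vessels, and lies on chrX:45378323-45388030 (mm9, minus strand). It stood at 0.322 and 0.22 CPM at EB day 0 (23 and 14 counts) and at 181 and 178 CPM at EB day 6. The libraries of each day lay close together and far from those of the other day, and the 691-fold rise (log2FC 9.43 ± 0.15 SE, FDR = 1.22e-06) was the largest of the 10 genes. Its receptor gene Aplnr, known in early mesoderm, had 0 and 1 count at EB day 0 and stood at 59.7 and 232 CPM at EB day 6.

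Kdr, the VEGF receptor that marks the mesoderm from which blood and vessels form, lies on chr5:76328852-76374483 (minus strand). It stood at 3.18 and 1.74 CPM at EB day 0 and at 7.12 and 55.5 CPM at EB day 6. Both EB day 6 libraries were above both EB day 0 libraries, as for 37.4% of all genes tested, but the EB day 6 libraries differed from each other by 7.8-fold. The fitted rise was 13.5-fold (log2FC 3.76 ± 0.92 SE, 95% interval 1.54 to 5.97, FDR = 0.0126). The log2FC was 1.61 without EB day 6 replicate 3 and 4.59 without replicate 2, and the call was lost without EB day 0 replicate 2 (log2FC 4.25) or replicate 3 (3.40). Flt1, another VEGF receptor, rose from 0.7 and 0.738 CPM to 19.8 and 29.8 CPM (log2FC 5.19 ± 0.26 SE, FDR = 2.35e-05). Their ligand gene Vegfa stood at 21.1 and 21.7 CPM at EB day 0 and at 16.3 and 15.7 CPM at EB day 6.

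Tek (Tie2), the angiopoietin receptor of endothelial and haematopoietic stem cells, lies on chr4:94405980-94541667 (plus strand). It stood at 7.8 and 9.23 CPM at EB day 0 and at 0.829 and 0.654 CPM at EB day 6. The days did not overlap, and 45.4% of all genes tested were separated in this direction. Tek was 10.8-fold lower at EB day 6 (log2FC -3.43 ± 0.23 SE, FDR = 5.72e-05), the largest fall of the 10 genes. It thus went the other way from the receptor genes Kdr and Flt1. EB day 0 itself was above shNT, where Tek stood at 4, 4.11 and 4.97 CPM, although both are undifferentiated control cells. That difference was not tested.

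Etv2, the ETS factor at the head of the haemato-endothelial programme, lies on chr7:31418635-31421308 (minus strand). It stood at 1.01 and 0.926 CPM at EB day 0 and at 1.78 and 5.32 CPM at EB day 6, a 3.9-fold rise (log2FC 1.96 ± 0.52 SE, FDR = 0.0166). As for Kdr, EB day 6 replicate 3 was the higher library. Without it the log2FC was 0.95 and under the 2-fold threshold, and the call was also lost without EB day 0 replicate 2 (2.02) or replicate 3 (1.91).

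Lmo2, the LIM adaptor that bridges Tal1 and GATA factors, lies on chr2:103798143-103822035 (plus strand). It stood at 0.883 and 0.957 CPM at EB day 0 and at 3.89 and 5.83 CPM at EB day 6. The rise of 5.61-fold (log2FC 2.49 ± 0.28 SE, FDR = 0.000504) was past both thresholds whichever library was left out, with log2FC between 2.16 and 2.76. Its partner gene Tal1 (chr4:114729031-114744360, plus strand), the bHLH factor required for all blood lineages, did not rise with it. Tal1 stood at 2.58 and 4.8 CPM at EB day 0 and at 1.83 and 2.2 CPM at EB day 6 (log2FC -0.78 ± 0.33 SE, FDR = 0.0825). It was called lower without EB day 0 replicate 2, which had the lower of the 2 values (log2FC -1.18).

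The GATA factors, the other partners of Lmo2, had low values at EB day 6. Gata1 (chrX:7536386-7555197, minus strand) stood at 1.37 and 0.502 CPM at EB day 0 and fell to 13 counts (0.192 CPM) and 1 count (0.0145 CPM) at EB day 6. The log2FC of -3.09 ± 0.88 SE (FDR = 0.0227) rests on those few counts, and the call was lost without EB day 0 replicate 2 (-2.20) or replicate 3 (-3.63). Leaving out EB day 6 replicate 2 gave a log2FC of -5.75. Gata2 (chr6:88143885-88157024, plus strand) stood at 2.61 and 3.73 CPM at EB day 0 and at 0.74 and 1.88 CPM at EB day 6 (log2FC -1.19 ± 0.45 SE, FDR = 0.0583). The groups did not overlap, but Gata2 was called only where EB day 6 replicate 3 was left out (-2.02) among the libraries left out in turn. Of all genes tested, 45.4% had both EB day 6 libraries below both EB day 0 libraries and 37.4% above, so that this separation is common.

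Esam and Cd34, both genes of surface proteins, were called lower. Esam (chr9:37335663-37345904, plus strand), an adhesion molecule of endothelial junctions and of haematopoietic stem cells, went from 1.68 and 1.33 CPM to 0.326 and 0.349 CPM (log2FC -2.07 ± 0.32 SE, FDR = 0.00199). Cd34 (chr1:196765015-196787486, plus strand), the sialomucin that marks progenitors and capillary endothelium, went from 2.4 and 4.02 CPM to 1.36 and 1.61 CPM. Its log2FC of -1.02 ± 0.31 SE (FDR = 0.0289) lay at the 2-fold threshold and was lost without EB day 0 replicate 3 (-0.59) or EB day 6 replicate 2 (-0.89). In Cd34, 5.65% of exon bases are shared with Gm16897 on the opposite strand, and the counts of the 2 genes cannot be told apart there, since no strand setting is stated.

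**Figure D2:**
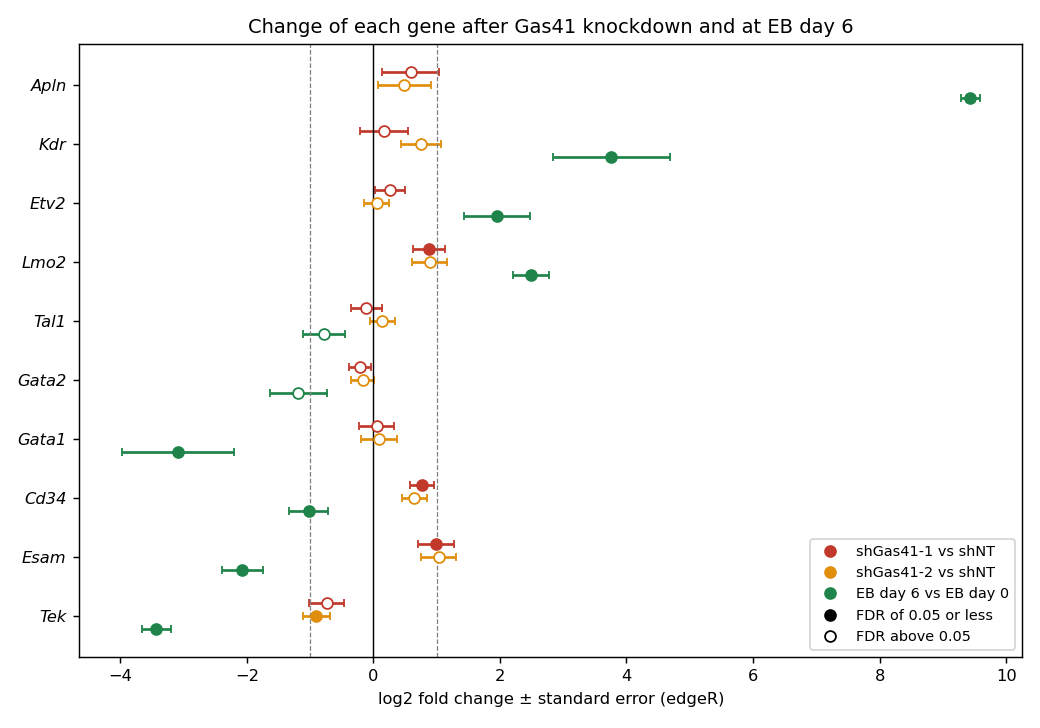
The log2 fold change of each gene, with its standard error from edgeR, in both KD comparisons and at EB day 6. Filled points have an FDR of 0.05 or less and dashed lines mark a 2-fold change. Changes at EB day 6 ran from 9.43 for Apln to -3.43 for Tek, and those after KD from 1.03 for Esam to -0.90 for Tek.

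The 2 EB day 6 libraries differed from each other in 4 of the 10 genes. Kdr (7.8-fold), Etv2 (3.0-fold) and Gata2 (2.54-fold) were 2-fold or more higher in replicate 3, and Gata1, with 13 counts against 1, was higher in replicate 2. Over 17475 tested genes with at least 10 counts in either library, 2.64% were 2-fold or more higher and 2.86% lower in replicate 3. Other mesoderm genes differed alike. On the list of early and lateral mesoderm markers, 9 of 15 were 2-fold or more higher in replicate 3 and 0 lower (median log2 ratio 1.72), among them Mesp1, a transient marker of cardiovascular mesoderm, at 21.8 and 84.4 CPM. On the endothelial list 3 of 17 were higher (Sox17 at 1.91 and 11.3 CPM) and 0 lower, on the vascular ligands and receptors 3 of 19 and 0, on the blood transcription factors 2 of 15 and 1, on the cardiac and smooth muscle markers 3 of 11 and 0, and on the endoderm markers 4 of 8 and 0. Sox17 is on both the endothelial and the endoderm list and is counted in each. Pluripotency markers gave 1 higher and 1 lower of 16, neural markers 0 higher and 2 lower of 6, fibroblast markers 0 higher and 1 lower of 8, and the blood cell markers (5) and globin and erythroid genes (3) gave 0 either way. The part of mesoderm markers in the differences of Kdr, Etv2 and Gata2 was not tested, and with 2 libraries the difference between them has no replicate check.

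**Figure D3:**
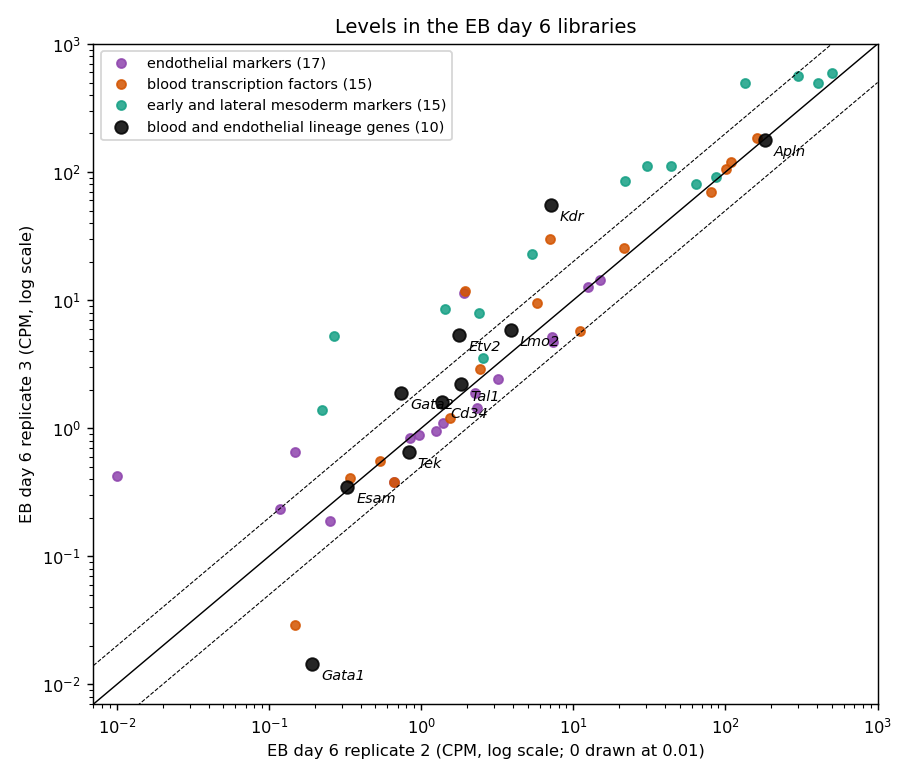
CPM in EB day 6 replicate 3 against replicate 2 (log axes) for the 10 genes and the genes of 3 lists that had at least 10 counts in either library. The solid line marks equal levels and the dashed lines a 2-fold difference. Kdr, Etv2 and Gata2 lie above the upper dashed line with 9 of 15 mesoderm markers, Gata1 lies below the lower, and Apln (181 and 178 CPM) lies on the solid line.

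Levels can be ordered between genes only per length of exon, in CPM per kb. In shNT, Cd34 had the highest level (1.32 ± 0.149 CPM per kb, SD, n = 3), and its libraries (1.21 to 1.49) lay above those of every other gene of the 10. Tal1 (1.01), Etv2 (0.993), Tek (0.926) and Gata2 (0.882) followed with overlapping libraries. Esam (0.717), Gata1 (0.548), Lmo2 (0.46) and Kdr (0.319) came next, each overlapping its neighbours, and Apln (0.102) lay below them all. At EB day 0 Tek led (1.81 ± 0.214, n = 2) and Apln was again the lowest (0.086). At EB day 6 the order turned over. Apln led with 57 ± 0.811 CPM per kb, ahead of Kdr (4.3 ± 4.7), Etv2 (2.39 ± 1.69) and Lmo2 (2.24 ± 0.633), whose libraries overlapped. Cd34 (0.568), Tal1 (0.46) and Gata2 (0.39) stood further down, where Gata2 overlapped both, and Tek (0.157), Esam (0.118) and Gata1 (0.0424) were at the foot of the order.

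After Gas41 KD the log2FC of the same 10 genes lay between -0.90 and 1.03. None was called at 2-fold and an FDR of 0.05 or less with either shRNA, where 7.9% of 18274 genes tested were called higher and 2.4% lower with shGas41-1, and 3.96% of 18405 genes higher and 0.869% lower with shGas41-2. At an unadjusted p under 0.05, 4 of the 10 differed with shGas41-1 (Lmo2, Cd34, Esam and Tek) and 5 with shGas41-2 (the same 4 and Kdr). Such a p is common here, since 6405 of 18274 genes tested had it with shGas41-1 and 5209 of 18405 with shGas41-2. Called by FDR alone, the 10 genes gave Lmo2, Cd34 and Esam as higher with shGas41-1, where 10.8% of all genes passed, and Tek as lower with shGas41-2, where 3.97% passed. DESeq2 called 0 of the 10 at 2-fold with shGas41-1 and 1 (Esam) with shGas41-2, and edgeR's exact test did the same. Both KDs were compared with the same 3 shNT libraries, so their values below are not independent of each other.

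Esam stood at 1.87, 2.81 and 1.48 CPM in shNT, at 3.7, 4.94 and 3.04 CPM with shGas41-1 and at 3.53 and 4.41 CPM with shGas41-2. Every KD library was above every shNT library, as for 18.1% of all genes tested with shGas41-1 and 18.2% with shGas41-2. The log2FC was 0.99 ± 0.28 SE (FDR = 0.0395) with shGas41-1 and 1.03 ± 0.28 SE (FDR = 0.0551) with shGas41-2, so that each missed the call by a different threshold. Leaving out shNT replicate 2 raised them past both thresholds (1.29 and 1.33), as did leaving out shGas41-1 replicate 3 for shGas41-1 (1.10).

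Cd34 stood at 3.9, 3.32 and 3.16 CPM in shNT, at 4.7, 6.21 and 5.86 CPM with shGas41-1 and at 4.24 and 6.02 CPM with shGas41-2. All 5 KD libraries were above the shNT libraries. Of all genes tested, 18.1% lay wholly above shNT with shGas41-1 and 18.2% with shGas41-2. The log2FC was 0.77 ± 0.19 SE (FDR = 0.0247) with shGas41-1 and 0.65 ± 0.20 SE (FDR = 0.0769) with shGas41-2. Lmo2 stood at 1.22, 1.1 and 0.677 CPM in shNT, at 1.81, 1.78 and 1.62 CPM with shGas41-1 and at 1.74 and 1.75 CPM with shGas41-2. Its KD libraries also lay above all shNT libraries, against the same shares over all genes. The log2FC of Lmo2 was 0.88 ± 0.26 SE (FDR = 0.0461) with shGas41-1 and 0.89 ± 0.28 SE (FDR = 0.081) with shGas41-2. Of the 6 libraries left out in turn with shGas41-1, the FDR stayed at 0.05 or less for 3 with Cd34, 2 with Esam and 1 with Lmo2, which without shNT replicate 1 was past the 2-fold threshold with both shRNAs (1.04 and 1.06).

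Tek went the other way. It stood at 4, 4.11 and 4.97 CPM in shNT, at 2.78, 3.23 and 1.44 CPM with shGas41-1 and at 2.6 and 1.83 CPM with shGas41-2. Every KD library was below every shNT library, which 24.1% of genes showed with shGas41-1 and 32% with shGas41-2. The log2FC was -0.74 ± 0.27 SE (FDR = 0.0851) and -0.90 ± 0.21 SE (FDR = 0.0364). The shGas41-1 value was -0.51 without replicate 3, the library that stood apart. The shGas41-2 value passed the FDR for 1 of 5 libraries left out in turn (shNT replicate 1).

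The other 6 genes had no FDR under 0.05 after KD. Kdr stood between 1.59 and 3.38 CPM in shNT, between 1.33 and 3.63 CPM with shGas41-1 (log2FC 0.17, 95% interval -0.69 to 1.03) and at 4.35 and 3.02 CPM with shGas41-2 (0.75, 95% interval 0.02 to 1.49, FDR = 0.168). Without shNT replicate 1, the highest of the controls, Kdr was called higher with shGas41-2 (1.12). Etv2 stood at 1.55, 1.49 and 1.39 CPM in shNT and between 1.45 and 2.09 CPM in the 5 KD libraries, with intervals of -0.29 to 0.81 and -0.42 to 0.52. For Tal1 they were -0.69 to 0.46 and -0.33 to 0.61, for Gata1 -0.56 to 0.65 and -0.58 to 0.77, and for Gata2 -0.62 to 0.19 and -0.58 to 0.25. A 2-fold change lies outside these intervals for Etv2, Tal1, Gata1 and Gata2. Apln had between 11 and 49 counts in these 8 libraries, and its intervals of -0.44 to 1.61 and -0.48 to 1.47 include a 2-fold rise.

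None of the 10 genes was called different between the 2 shRNAs, tested directly over 8 libraries. The differences, shGas41-1 minus shGas41-2, ran from -0.57 for Kdr (95% interval -1.46 to 0.31) to 0.21 for Etv2 (-0.34 to 0.76), with FDR between 0.861 and 0.997. For Esam the difference was -0.03 (-0.68 to 0.61), for Lmo2 -0.01 (-0.57 to 0.56), for Cd34 0.12 (-0.37 to 0.62) and for Tek 0.16 (-0.50 to 0.82). The intervals of these 4 genes lie within 2-fold. In this comparison edgeR's quasi-likelihood test called 0 of 19146 genes, with 1348 at an unadjusted p under 0.05, while DESeq2 called 37 higher and 30 lower and the exact test 52 and 30, of which none was among the 10.

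Related genes were read on 5 lists. Over all genes tested, 7.9% were called higher and 2.4% lower with shGas41-1, and 3.96% and 0.869% with shGas41-2. On the endothelial list, 3 of 17 tested genes were called higher and 3 lower with shGas41-1 (median log2FC 0.27, all genes 0.02), and 3 of 18 higher and 2 lower with shGas41-2 (0.33, all genes -0.0127). Cdh5 (VE-cadherin), the adhesion protein of endothelial junctions, rose from 0.135, 0.159 and 0.0829 CPM in shNT to 1.22, 1.57 and 0.618 CPM with shGas41-1 and to 0.552 and 1.04 CPM with shGas41-2. Its log2FC was 3.24 ± 0.43 SE (FDR = 0.00306) and 2.74 ± 0.44 SE (FDR = 0.011), from 8, 11 and 6 counts in the shNT libraries. Erg, an endothelial ETS factor, rose with both shRNAs (log2FC 1.95 and 2.14). Gpr116 rose with shGas41-1 (1.50) and had a log2FC of 1.21 with shGas41-2 (FDR = 0.0663), while Sox7 rose with shGas41-2 (1.23) and had a log2FC of 0.27 with shGas41-1 (FDR = 0.461). Nos3, the endothelial nitric oxide synthase, fell with both shRNAs (-1.96 and -1.01), and so did Sox18 (-1.29 and -1.21). Without shGas41-1 replicate 3, and also with a replicate block, the call of Sox18 with shGas41-1 was lost and 2 endothelial genes were called lower in place of 3. In the direct test between the shRNAs, 0 of 19146 genes were called with edgeR, and 1348 had an unadjusted p under 0.05. Pecam1, which mESCs also express, stood between 38.9 and 53.7 CPM in shNT and between 45.8 and 65.7 CPM in the KD libraries (FDR = 0.0885 and 0.116). Fli1, another ETS factor of blood and endothelium, had at most 2 counts in each of these 8 libraries.

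On the list of vascular ligands and receptors, 2 of 18 genes were called higher and 1 lower with shGas41-1 (median log2FC 0.08), and 1 of 17 higher and 0 lower with shGas41-2 (0.06), where the shares over all genes were again 7.9% and 2.4%, and 3.96% and 0.869%. Efnb2, the arterial ephrin, rose from 4.1, 3.75 and 2.55 CPM in shNT to 26, 24.8 and 14.7 CPM with shGas41-1 (log2FC 2.72 ± 0.25 SE, FDR = 0.00187) and to 13.8 and 13.2 CPM with shGas41-2 (2.05 ± 0.20 SE, FDR = 0.00149). Flt1 rose with shGas41-1 (1.33 ± 0.29 SE, FDR = 0.0148) and had a log2FC of 1.10 with shGas41-2 (FDR = 0.0774), and Acvrl1, a BMP9 receptor of vessels, fell with shGas41-1 (-1.01). Acvrl1 lost this call without shGas41-1 replicate 3 and with the replicate number as a block, which left 0 genes of the list lower. With the block, 1 gene of the list was called higher with shGas41-1 in place of 2. Among 15 blood transcription factors, 1 was called higher and 0 lower with shGas41-1 (Ets1, 1.14; median -0.06) and 0 either way with shGas41-2 (median -0.15). Among 6 tested blood cell markers, 0 were higher and 1 lower with shGas41-1 (Epor, the erythropoietin receptor, -1.29) and 0 either way with shGas41-2. By FDR alone, 2 of the 6 were lower with shGas41-1 and 1 with shGas41-2, as were 2 and 1 of the 15 blood transcription factors. Over all genes tested, 1412 of 18274 were lower by FDR alone with shGas41-1 and 730 of 18405 with shGas41-2. Among the globin and erythroid genes, 0 of 3 tested with shGas41-1 and 0 of 5 with shGas41-2 were called either way. With a replicate block 2 of the 5 were called higher with shGas41-2, where 1122 of 18405 genes were. On this list Hba-a1 and Hba-a2 had 46 and 45 counts in shGas41-2 replicate 1 but 12 and 11 in replicate 2. In shNT they had between 4 and 10 counts.

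**Figure D4:**
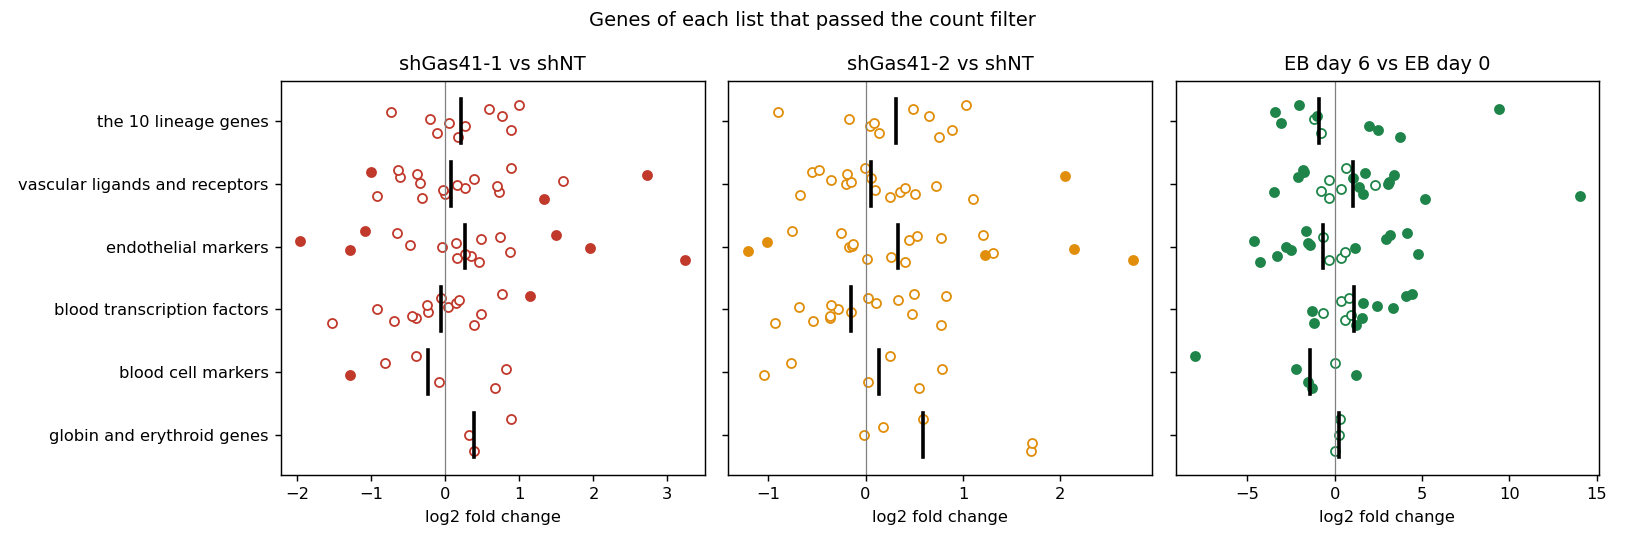
The log2 fold change of every gene that passed the count filter, for the 10 genes and 5 related lists, in both KD comparisons and at EB day 6, on axes of different range. Filled points were called at 2-fold and an FDR of 0.05 or less, and black bars mark the median of each list. The rightmost point at EB day 6 is Aplnr, whose fitted value rests on 1 count at EB day 0. After KD the endothelial list holds 3 higher and 3 lower of 17 genes with shGas41-1 and 3 higher and 2 lower of 18 with shGas41-2.

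At EB day 6, where 16.6% of all genes tested were called higher and 14.7% lower, these lists held calls in both directions, apart from the globin and erythroid genes, which had 0. On the endothelial list 5 of 17 genes rose and 8 fell (median log2FC -0.67), among them Sox17 (4.79 ± 0.93 SE) and Cd93 (4.16 ± 1.03 SE) upwards and Mmrn2 (-4.63 ± 0.17 SE) and Pecam1 (-4.31 ± 0.29 SE) downwards. Sox17 is also on the endoderm list. The value of Cd93 rests on few counts, 2 and 1 at EB day 0, under the floor of 3, and 10 and 45 at EB day 6. Pecam1 went from 47.6 and 31.7 CPM to 2.34 and 1.43 CPM. Cdh5 was low on both days and was not tested, with 12 and 5 counts at EB day 0 and 8 and 8 at EB day 6. Vascular ligands and receptors gave 9 rises and 4 falls among 19 genes (median 1.03), with Efnb2 up (3.38 ± 0.20 SE) and Vegfc, the lymphatic growth factor, down (-3.50 ± 0.14 SE).

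Of 14 blood transcription factors, 7 rose and 2 fell at EB day 6 (median log2FC 1.08), against 16.6% and 14.7% of all genes tested. Ets1 went from 1.41 and 1.52 CPM to 21.6 and 25.3 CPM (4.08 ± 0.16 SE) and Runx1, the factor of definitive blood, from 1.09 and 1.37 CPM to 2.44 and 2.92 CPM (1.21 ± 0.26 SE, FDR = 0.00714). Lmo1, the paralogue of Lmo2, rose from 0.308 and 0.377 CPM to 1.94 and 11.8 CPM, again with the higher value in replicate 3. Myb (3.33) and the GATA1 cofactor gene Zfpm1 (2.43) rose as well. In EB day 6 replicates 2 and 3, Zfpm1 stood at 7 and 30.2 CPM and Myb at 11.1 and 5.69 CPM. Of 6 tested blood cell markers, 1 was called higher and 4 lower (median -1.45). Without EB day 6 replicate 2, 1 was called higher and 2 lower of 7. Laptm5, a lysosomal protein of blood cells that these mESCs also expressed, went from 118 and 136 CPM to 0.473 and 0.451 CPM, and Kit, the receptor of progenitors and also of mESCs, from 106 and 87.4 CPM to 30.5 and 31.2 CPM. Embryonic globins were at or near 0. Hbb-bh1 had 0 and 3 counts and Hba-x 1 and 0 counts in the EB day 6 libraries, and 0 of the 3 globin and erythroid genes that passed the filter was called.

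Over the 12 libraries, the genes whose log2(CPM + 1) ran most like that of each of the 10 were looked for among 15556 genes. These correlations describe libraries that share their groups, and for most genes they follow the contrast between EB day 6 and the rest. Kdr ran most like Sox17 (Pearson's r = 0.974), Rbm24 and Cdh20, and Lmo2 like Igfbp3 (0.983), Nedd9 and Smoc2. Apln ran like Tmem200a (1.000) and Prickle1, and Etv2 like Bace2 (0.935), Trim9 and Wnt2. On the falling side, Tek ran most like Slc26a9 (0.975), Esam like Txn2 (0.982), Gata1 like Slc30a2 (0.956) and Cd34 like Gm12919 (0.981). Gata2 (Oraov1, 0.928) and Tal1 (Plaur, 0.926) had the lowest first-ranked r of the 10. None of the first-ranked genes was another of the 10.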

How the data were processed

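RNA-seq counts of 12 libraries were analysed. Per the labels and the methods of the study, the authors aligned reads with TopHat2 (2.0.10) to the mouse transcriptome and mm9, ran htseq-count, and deposited whole-number counts per gene without normalization. A strand setting is not given in the sources used here. The log2 fold changes, p-values and FDR deposited by the authors from their own edgeR comparisons were not used. Columns named ESC beside the EB day 6 columns were taken as EB day 0. ChIP-seq samples were not analysed here.

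Counts were tested in R 4.3.3 with edgeR 4.0.16 (filterByExpr with a minimum count of 10 and total of 15, TMM scaling, glmQLFit and glmQLFTest), with Benjamini-Hochberg FDR over all genes tested in each comparison. The 3 comparisons with controls used the libraries of their own groups, and the comparison of the shRNAs used 8 libraries. Standard errors were derived from the test's F. CPM are counts over the library total. A test on simulated counts with 200 changed genes was also run, and its outcome is not reported here. Per-length levels, gene positions and overlaps used the GENCODE annotation of mm9. The alternatives were DESeq2 1.42.0, the exact test, glmTreat, other thresholds and scaling, no filter, halved counts, a replicate block, 1 fit over 12 libraries and each library left out.

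The 10 genes and all gene lists were chosen with earlier results of these data known. Genes named are the 10, Yeats4, up to 4 called genes with the largest change per list and comparison, fixed markers (Pecam1, Cdh5, Flt1, Vegfa, Aplnr, Fli1, Runx1, Hbb-bh1, Hba-x, T and Mesp1) and up to 3 nearest genes by correlation, of which some are not reported here.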

Additional observations from a re-analysis of the deposited data

How the results depend on the processing

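With shGas41-1 the count of called genes among the 10 was 3 without the fold threshold and 1 (Esam) with the replicate number as a block, and with shGas41-2 it was 1 with an FDR of 0.10, without the fold threshold (Tek), without the filter, with DESeq2, with the exact test and with 1 fit over 12 libraries (Esam in each case but that of Tek). Leaving out each library gave between 0 and 1 with shGas41-1, between 0 and 2 with shGas41-2 and between 4 and 8 at EB day 6, against 8 with all libraries. At EB day 6 the count was 4 at an FDR of 0.01 and 5 with glmTreat, and 9, with Gata2 added, at an FDR of 0.10, without the filter, with library size scaling, DESeq2, the exact test and halved counts. Between the shRNAs it was 0 under all alternatives, and the fall of Yeats4 passed both thresholds under all of them. With fewer libraries the test has fewer degrees of freedom, and otherwise the cause of these shifts was not tested.

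The replicate numbers showed no pairing of the libraries with shGas41-1 or at EB day 6, but some with shGas41-2. Same-numbered deviations correlated at -0.104, 0.194 and -0.594 with shGas41-1, at 0.489 and 0.409 with shGas41-2 (2 pairs) and at 0.083 at EB day 6. In a group of 2 libraries the deviations from the mean are equal in size and opposite in sign. Differently numbered values of -0.489 and -0.409 with shGas41-2, and of -0.083 at EB day 6, therefore only repeat the same-numbered ones with the sign reversed. With the replicate number as a block, Esam was called with shGas41-1 (log2FC 1.02), Gata2 gained the call at EB day 6 (-1.29) and Cd34 lost it (-0.99), and 5 of the 10 had an FDR of 0.05 or less with shGas41-2, where 7166 of 18405 genes did, against 1824 without the block. No other 2-fold call among the 10 changed.

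Values near 0 changed sign. Gata1 with shGas41-1 and Etv2 with shGas41-2 both became -0.03 with library size scaling, and the shRNA differences of Lmo2 and Esam both became 0.12 with the replicate block. With libraries left out, log2FC ranged with shGas41-1 from -0.18 to 0.53 (Kdr), -0.42 to 0.03 (Tal1) and -0.12 to 0.27 (Gata1), and with shGas41-2 from -0.11 to 0.35 (Tal1) and -0.15 to 0.34 (Gata1). The shRNA differences ranged from -0.56 to 0.01 (Tal1), -0.04 to 0.02 (Lmo2), -0.03 to 0.33 (Etv2), -0.27 to 0.21 (Gata1), -0.17 to 0.08 (Gata2), -0.13 to 0.42 (Cd34), -0.06 to 0.41 (Tek), -0.19 to 0.40 (Apln) and -0.22 to 0.16 (Esam).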

Other observations

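Genes of other lineages were measured beside the blood and endothelial genes. Over all genes tested, 7.9% were called higher and 2.4% lower with shGas41-1, and 3.96% and 0.869% with shGas41-2. With shGas41-1, early and lateral mesoderm markers gave 2 higher and 2 lower calls among 13 tested genes (Lhx1 with a log2FC of 2.88 and Snai1 with 1.08, against Tbx6 with -1.42 and Eomes just past the threshold), neural markers 2 higher among 7 (among them Pax6 with 2.43) and endoderm markers 2 higher and 1 lower among 10 (Foxa1 with 1.77 and Gata6 with 1.76, against Hnf4a with -1.24). The value of Lhx1 (SE 0.71) rests on few counts, 1, 5 and 0 in shNT and 16, 18 and 14 with shGas41-1. Pluripotency markers gave 1 higher and 3 lower among 16, with Dppa3 at 2.90 and Tfcp2l1, Klf4 and Esrrb at -1.55, -1.13 and -1.04. Fibroblast markers gave 0 higher and 1 lower among 5 (Thy1, -1.10), and cardiac and smooth muscle markers gave 0 calls among 8. With shGas41-2 there was 1 higher call among the mesoderm markers (Snai1, 1.08) and 1 among the endoderm markers (Sparc, 1.10), and 0 among the pluripotency, neural, fibroblast and muscle lists. Without shGas41-1 replicate 3, mesoderm markers gave 1 lower call (Eomes lost) and pluripotency markers 2 (Esrrb lost), while the muscle and fibroblast lists each gave 1 higher call. With a replicate block, the mesoderm list gave 1 higher and 0 lower and the endoderm list 1 higher and 0 lower with shGas41-1. With shGas41-2 the block gave 0 higher and 1 lower on the mesoderm list, so that the call of Snai1 was lost. It gave 1 higher and 0 lower on both the endoderm and the pluripotency list. Library size scaling gave 0 mesoderm calls either way with shGas41-2.

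At EB day 6, where 16.6% of all genes tested were called higher and 14.7% lower, mesoderm markers rose in 14 of 15 cases and fell in 1 (median log2FC 6.84), and Lhx1 stood at 135 and 495 CPM. Pluripotency markers fell in 13 of 16 cases, led by Klf4 (-5.64) and Zfp42 (-4.87). Endoderm markers, which include Sox17 of the endothelial list, gave 7 rises and 1 fall among 9. Cardiac and smooth muscle markers gave 6 and 2 among 11, with Actc1 at 8.43, fibroblast markers 6 and 0 among 7, and neural markers 3 and 2 among 6. Actc1 had 0 and 1 count at EB day 0 and 170 and 244 counts at EB day 6.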
